A study of Mus musculus with 4 samples.

Results

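Genes of the traffic between the endoplasmic reticulum (ER) and the Golgi were compared between control and lamin A/C knockdown B16F10 melanoma cells. Members were taken by symbol from the deposited count matrix: the Yipf genes, the coat genes Sec16, Sec23, Sec24 and Sec31, the Sec22 genes, Copa, Copb, Cope, Copg and Copz, the Tmed genes, the Trappc genes and Sec61, Sec62 and Sec63. The rule used no measured value and gave 61 of the 24421 gene symbols. Yipf4 was known to be low in the knockdown when the set was put together, so its own values are a description. Other earlier results of these data were known by then too.

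B16F10 is a pigmented melanoma line of C57BL/6 mice. Both groups were infected with lentivirus and selected with puromycin. The 2 shControl libraries came from cells with a vector that the study lists as empty, and an effect of bearing any hairpin thus enters the comparison. The 2 shLmna libraries came from cells whose vector encodes an shRNA (short hairpin RNA) directed at Lmna, the gene for both A-type lamins, lamin A and C, of the nuclear lamina. Each condition was a single transduced line as far as is stated. Whether the libraries of a group were separate cultures is not stated, so the p-values measure the spread between libraries, which may be technical. RNA was profiled by bulk MARS-seq, which tags molecules and sequences the 3′ ends of polyadenylated transcripts. In bulk RNA, fewer cells with a transcript and less of it per cell cannot be told apart.

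Lmna was examined first, as the check of the labels. It had 2826 and 2684 counts in control libraries and 331 and 480 in knockdown libraries. The log2 ratio (log2 fold change) of knockdown over control, fitted with edgeR's quasi-likelihood model, was -2.61 (SE 0.142, n = 2 per group, adjusted p = 7.93e-06). Totals ran from 2494880 to 3808843 counts per library. Of the 7 melanocyte markers, Pmel, Mlana, Dct, Tyrp1, Mitf and Sox10 were tested, and Tyr had 1 to 7 counts per library. Their summed level was 20117 to 20891 CPM (counts scaled to library size) in control libraries and 21156 to 24602 in knockdown libraries. By the edgeR adjusted test Mlana (0.51) and Pmel (0.41) were higher and Sox10 (-0.89) lower in the knockdown. Sox10 passed in 12 of 12 alternative settings, and Mlana missed the test without shLmna 2 and Pmel without shControl 2, shLmna 1 or shLmna 2 and with recovered counts (adjusted p = 0.0590). Among 9 markers of other cell types, Ptprc, Cd3e, Cdh5, Dcn and Epcam had no count in any library. Cd68 had 53 and 54 counts in control libraries and 27 and 44 in knockdown libraries, and Pdgfrb 20 and 38 against 23 and 22. Both were tested, and neither passed. Col1a1 had 2 to 13 and Pecam1 0 to 4 counts per library. The list summed to 81 and 109 counts in control libraries and 52 and 77 in knockdown libraries.

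Proteins made for secretion or for membranes enter the ER through the SEC61 channel. They leave it in vesicles with a COPII coat, which are caught by tethers such as TRAPP complexes and fused by SNARE proteins at the Golgi. COPI coats carry escaped ER proteins and receptors back. Receptors of the p24 (TMED) family ride in both coats, and YIPF proteins are multi-pass membrane proteins of the ER and Golgi. Melanocytes send their pigment enzymes along this route.

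Yipf4 was almost lost in knockdown libraries, and a small group of members was low with it, while most of the pathway was at a similar level. Besides Yipf4, the tested members that fell most were Yipf5, Trappc8, Sec63, Sec24a and Tmed10, which belong to 5 different classes of the machinery. Of the 61 members, 51 passed the filter on low counts and were tested. By edgeR with an adjusted p under 0.05, 10 of them were lower in the knockdown (19.6%) and 1 was higher (1.96%). Among all 9150 tested genes, 9.74% were lower and 5.48% higher by the same test. A further limit on size (log2 ratio over 1) and on abundance (mean normalized count over 5) left 6 members lower (11.8%, against 5.88% of all tested genes) and 0 higher (against 1.76%). Both counts of lower members include Yipf4, whose fall was known beforehand. Of the 6, only Tmed10 passed the filter on low counts through both groups, and the rest passed through shControl alone. These shares are thus descriptions. At an unadjusted p under 0.05, 16 of the 51 differed in either direction (31.4%, beside 30.1% of all tested genes), and 0 members were called higher by DESeq2 too.

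The middle of the distribution was near 0. The median log2 ratio was -0.01 over the 51 tested members and -0.00107 over all tested genes. Summed over all 61 members, the level was 5666 and 5503 CPM in control libraries and 5574 and 5716 CPM in knockdown libraries, with overlapping groups. In 29 of the 51 members (56.9%) the groups did not overlap, against 60.1% of all tested genes, and these were 15 lower and 14 higher. The 40 members past the test in neither direction had log2 ratios from -0.32 to 0.49.

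**Figure D1:**
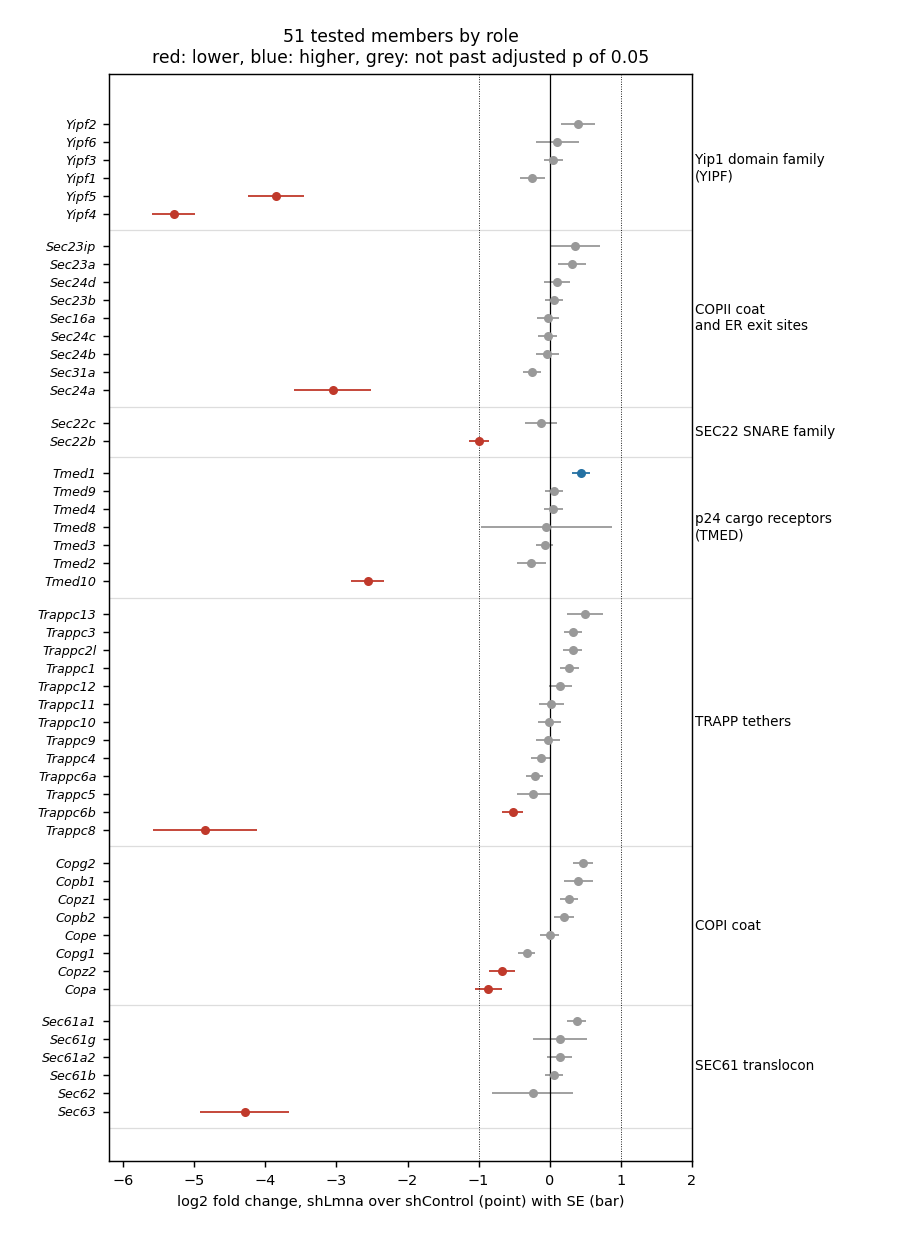
Log2 ratio (shLmna over shControl, horizontal axis, points) with its standard error (bars) for the 51 tested members, grouped by role; dotted lines mark the limit on size. Red points are lower and the blue point higher at an edgeR adjusted p under 0.05. The red points run from -0.52 to -5.29 and come from every class, while the grey points lie between -0.32 and 0.49.

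Yipf4 encodes a Golgi membrane protein that forms a complex with YIPF3. The gene lies at chromosome 17, 74489493 to 74500277, on the plus strand (GRCm38). It had 188 and 220 counts in control libraries and 5 and 4 in knockdown libraries. Both shLmna libraries lay far below both shControl libraries, and replicates of a group were close. The mean level went from 58.6 ± 0.474 CPM to 1.53 ± 0.628 CPM (SD, n = 2). The log2 ratio was -5.29 (SE 0.301, edgeR adjusted p = 7.93e-06), a 39.2-fold difference. The ratio of summed counts per total was 40.4, with an exact 95% interval of 21.0 to 88.9 that covers counting error only.

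Yipf5, the mammalian YIP1A of ER exit sites and the early Golgi, followed. Control libraries had 132 and 206 counts of it, and knockdown libraries 14 and 6. The groups were well apart, and replicates differed more than for Yipf4. The mean was 48.0 ± 10.1 CPM in control and 3.59 ± 2.76 CPM in knockdown libraries (SD, n = 2), and the log2 ratio was -3.85 (SE 0.395, edgeR adjusted p = 0.000193). It was -4.84 without shLmna 1 and -3.10 without shLmna 2.

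The other 4 tested YIPF genes did not pass the test. Yipf3, the partner of Yipf4, had 495 and 480 counts in control libraries and 377 and 526 in knockdown libraries, and its groups overlapped in CPM. Its log2 ratio was 0.05 (SE 0.132, edgeR adjusted p = 0.829). Yipf1, Yipf2 and Yipf6 had log2 ratios of -0.24, 0.40 and 0.11, and Yipf7 had no count. Reads were counted at the 3′ end only, so counts were summed over a family without division by length. The YIPF sum went from 319 ± 9.29 to 221 ± 10.0 CPM (SD, n = 2), and without Yipf4 and Yipf5 it was 213 ± 19.9 and 216 ± 6.66 CPM. Yipf4 made up 17.9% and 18.8% of the family's counts in control libraries and 0.868% and 0.510% in knockdown libraries.

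**Figure D2:**
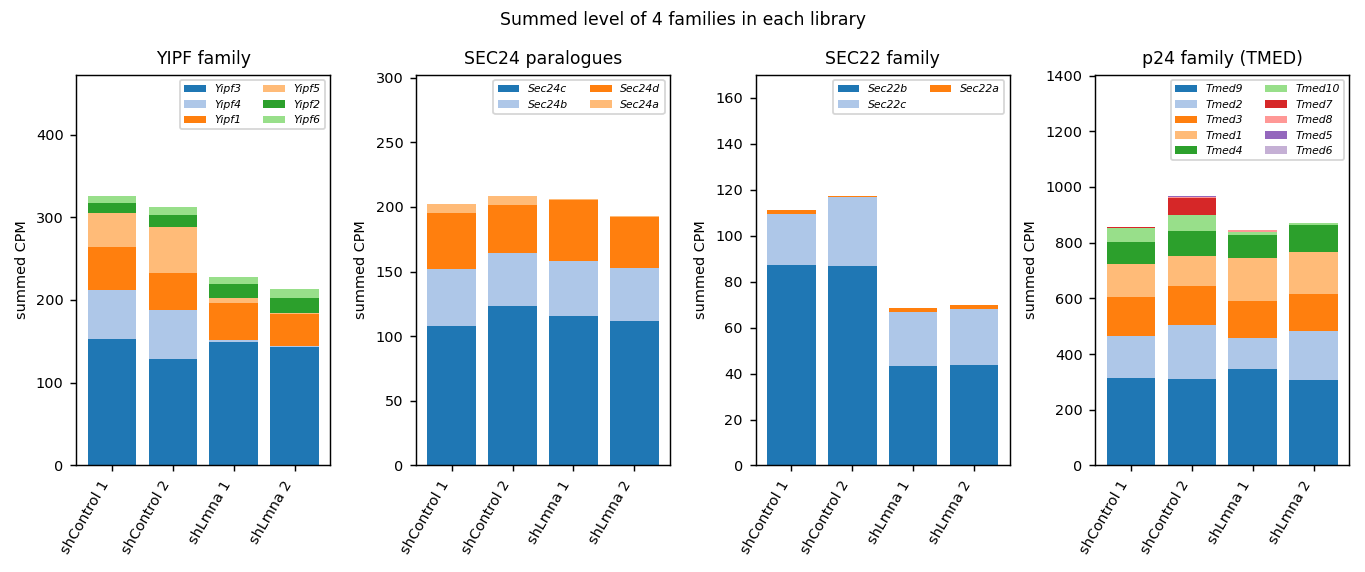
Summed CPM (vertical axis, from 0) of the YIPF family, the SEC24 paralogues, the SEC22 family and the p24 family in each of the 4 libraries, stacked by gene. The YIPF bars drop from 319 to 221 CPM on average with the loss of the Yipf4 and Yipf5 segments, the SEC22 bars drop with Sec22b, and the SEC24 bars stay near 200 CPM.

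For 4 of the 6 members lower by all 3 limits, the sequence around an annotated transcription start is printed, to be read side by side. Yipf5 and Trappc8, the rest of the 6, are not shown, although they fell more than Tmed10 and Sec24a. Each runs 5′ to 3′ on the gene's strand from 250 bases before to 50 after the RefSeq start (GRCm38.p6). Capitals mark matches on either strand to CCAAT (the CCAAT box), GGGCGG (the GC box), CCGGAAG (an ETS core), CCACG (a part of the ER stress response element) and TGACGTCA (the cAMP response element). The regions are chr17:74489243-74489542 on the plus strand for Yipf4, chr12:85374668-85374967 on the minus strand for Tmed10, chr11:51756785-51757084 on the minus strand for Sec24a and chr10:42761246-42761545 on the plus strand for Sec63. The Sec24a region lies inside the gene, which GENCODE places at 51692264 to 51763634 on the minus strand. It may therefore not be the gene's main promoter. The Tmed10 region starts outside its gene but lies partly inside it, as GENCODE places Tmed10 at 85340614 to 85374847 on the minus strand.
Yipf4: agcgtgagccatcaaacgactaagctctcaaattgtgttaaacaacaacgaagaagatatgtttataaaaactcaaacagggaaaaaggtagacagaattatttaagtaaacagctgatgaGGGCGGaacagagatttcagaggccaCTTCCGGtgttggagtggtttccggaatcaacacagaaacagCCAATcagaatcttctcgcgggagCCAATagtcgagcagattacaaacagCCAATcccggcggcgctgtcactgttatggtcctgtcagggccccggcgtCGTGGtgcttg
Tmed10: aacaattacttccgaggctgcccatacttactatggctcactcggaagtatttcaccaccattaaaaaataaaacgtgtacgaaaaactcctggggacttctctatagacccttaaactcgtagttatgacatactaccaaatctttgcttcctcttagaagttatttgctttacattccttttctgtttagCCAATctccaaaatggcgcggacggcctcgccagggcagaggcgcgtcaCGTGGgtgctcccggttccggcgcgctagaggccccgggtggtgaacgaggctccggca
Sec24a: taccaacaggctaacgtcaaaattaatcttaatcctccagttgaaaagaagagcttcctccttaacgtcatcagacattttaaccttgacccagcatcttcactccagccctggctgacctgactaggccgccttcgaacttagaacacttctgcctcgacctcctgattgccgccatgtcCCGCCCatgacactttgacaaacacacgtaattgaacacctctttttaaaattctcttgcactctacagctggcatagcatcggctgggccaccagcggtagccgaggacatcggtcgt
Sec63: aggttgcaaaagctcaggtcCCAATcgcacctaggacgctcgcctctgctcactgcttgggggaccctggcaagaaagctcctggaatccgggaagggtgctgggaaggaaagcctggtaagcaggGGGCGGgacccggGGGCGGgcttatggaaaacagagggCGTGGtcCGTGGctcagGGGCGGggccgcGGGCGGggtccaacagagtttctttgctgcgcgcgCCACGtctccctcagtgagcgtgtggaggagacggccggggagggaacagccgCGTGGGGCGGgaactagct

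None of the motifs searched occurred in all 4 stretches. CCAAT and CCACG occurred in all but that of Sec24a, the stretch that lies wholly inside its gene. Yipf4 held 3 CCAAT boxes and 1 match each to the GC box, the ETS core and CCACG. Tmed10 held 1 CCAAT box and 1 CCACG, Sec24a 1 GC box, and Sec63 1 CCAAT box, 5 GC boxes and 4 CCACG, of which the last GC box and CCACG overlap. Promoter entries matched 44 of the tested members and 8 of the 10 lower ones. Over all 32851 promoter entries, 37.4% held CCAAT, 35.7% GGGCGG, 8.86% CCGGAAG, 32.8% CCACG and 1.79% TGACGTCA. Of the 44 members, 40.9%, 63.6%, 34.1%, 56.8% and 2.27% did. The entries include genes that were not tested and hold more than 1 per gene for some, whereas members have 1 each. The shares are therefore not like for like, and no trait of the members follows from them. Of the 8 lower members, 4, 6, 2, 5 and 0 did. Median promoter GC content was 53.7% in the 8 lower members, 58.2% in the 44 members and 52.7% in all promoters of distinct genes. A match is a description of the letters and not a site.

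Within the COPII coat, Sec24a alone of 9 tested genes passed the test. SEC24 proteins form the inner coat layer with SEC23 and pick the cargo. Sec24a had 22 and 27 counts in control libraries and 3 and 2 in knockdown libraries, so the groups were apart but at low depth. The ratio of summed counts per total was 8.72 (exact 95% interval 3.49 to 28.1, counting error only), and the fitted log2 ratio of -3.05 (SE 0.539) had an edgeR adjusted p of 0.00491. The test was missed in DESeq2 (adjusted p = 0.0519) and, with edgeR, without shLmna 2 (-2.51, adjusted p = 0.102). The paralogues Sec24b, Sec24c and Sec24d had log2 ratios of -0.03, -0.03 and 0.11, and their groups overlapped. Sec24a supplied 3.37% and 3.47% of the SEC24 counts in control libraries, and the SEC24 sum was 205 ± 4.68 and 200 ± 9.78 CPM (SD, n = 2) in control and knockdown libraries.

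The rest of the COPII class did not pass. Sec31a, the outer coat subunit with the highest level in the class, had 546 and 663 counts in control libraries and 339 and 577 in knockdown libraries, a log2 ratio of -0.25 (SE 0.128, edgeR adjusted p = 0.230). The inner coat genes Sec23a and Sec23b, the exit site scaffold Sec16a and the SEC23 partner Sec23ip had values from -0.02 to 0.36. Sec16b and Sec31b were below the filter, with 14 and 7 counts of Sec16b in control libraries against 4 and 5 in knockdown libraries.

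Sec22b fell to about the size limit. It encodes an R-SNARE that sits in COPII vesicles and drives their fusion with the early Golgi. Its 282 and 324 counts in control libraries stood against 109 and 161 in knockdown libraries, and in CPM the replicates of each group nearly coincided. The level was 87.0 ± 0.425 and 43.5 ± 0.534 CPM (SD, n = 2), and the log2 ratio of -0.9995 (SE 0.141, edgeR adjusted p = 0.00134) lay just inside the limit of 1, so that Sec22b was not among the 6. Without shControl 2 it passed the limit, at -1.01. Sec22c was at -0.12, and Sec22a had 2 to 6 counts per library. The SEC22 sum was 114 ± 4.29 CPM in control libraries and 69.1 ± 0.937 CPM in knockdown libraries.

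Among the p24 receptors, Tmed10 fell and Tmed1 rose. Tmed10, which pairs with other p24 proteins to sort GPI-anchored cargo, had 161 and 217 counts in control libraries and 27 and 29 in knockdown libraries. The groups did not overlap. The mean dropped from 54.0 ± 5.82 to 9.29 ± 1.96 CPM (SD, n = 2), with a fitted log2 ratio of -2.56 (SE 0.231, edgeR adjusted p = 8.47e-05). Of the 31-base stretches in its last 1000 bases, 29.5% also occur in the pseudogene Tmed10-ps, so its counts are less certain. How many of its counts are affected was not tested.

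Tmed1 had 376 and 399 counts in control libraries and 389 and 551 in knockdown libraries. Scaled to depth, both shLmna libraries were above both shControl libraries, at 152 ± 2.64 against 112 ± 6.81 CPM (SD, n = 2). The log2 ratio was 0.45 (SE 0.123, edgeR adjusted p = 0.0375), and the test was missed in 4 of 12 alternative settings, namely DESeq2 (adjusted p = 0.129) and edgeR without shControl 2, shLmna 1 or shLmna 2 (adjusted p = 0.0990, 0.210 and 0.178). Dnm2 overlaps Tmed1 on the other strand, as Dgka overlaps Pmel, and whether counting used strand is not stated.

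The abundant p24 genes Tmed2, Tmed3, Tmed4 and Tmed9 had log2 ratios of -0.26, -0.07, 0.05 and 0.06. The p24 sum was 912 ± 79.0 CPM in control libraries and 859 ± 17.8 CPM in knockdown libraries (SD, n = 2). Tmed8 varied more within groups than between them, with 1 and 25 counts in control libraries and 16 and 5 in knockdown libraries. Tmed7 was below the filter because its counts rest on shControl 2, with 6 and 221 counts in control libraries and 1 and 1 in knockdown libraries. It was lower past the test with no filter, in DESeq2 and without shControl 1. Tmed5, Tmed6 and Tmed11 had 9, 1 and 0 counts at most in a library.

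TRAPP complexes tether vesicles and activate RAB1. Of 13 tested TRAPP genes, Trappc8 and Trappc6b fell. Trappc8, a subunit particular to the TRAPPIII form, had 23 and 50 counts in control libraries and 0 and 2 in knockdown libraries, with the groups apart. The ratio of summed counts per total was 32.5 with a wide exact 95% interval of 8.68 to 273 (counting error only). The fitted log2 ratio was -4.86 (SE 0.732, edgeR adjusted p = 0.00194). Without shLmna 2 the remaining knockdown library had no count, and the fitted value was then -8.03, which is no bound.

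Trappc6b, a core subunit, had 227 and 244 counts in control libraries and 125 and 167 in knockdown libraries, 67.8 ± 3.52 against 47.5 ± 2.79 CPM (SD, n = 2). Its log2 ratio of -0.52 (SE 0.149) had an edgeR adjusted p of 0.0434, and it missed the test in 6 of 12 alternative settings, among them DESeq2 (adjusted p = 0.282) and edgeR without shControl 1, shLmna 1 or shLmna 2 (adjusted p = 0.0788, 0.161 and 0.265). Of its 31-base stretches, 16.6% occur in other genes. Its paralogue Trappc6a was at -0.21. Trappc1, the TRAPP gene with the highest level, had 520 and 716 counts in control libraries and 509 and 830 in knockdown libraries (log2 ratio 0.28, SE 0.134, edgeR adjusted p = 0.199). The other TRAPP genes tested ran from -0.23 to 0.49, and the TRAPP sum was 1073 ± 1.10 and 1120 ± 6.81 CPM in control and knockdown libraries (SD, n = 2). Trappc2 had 1 count in all, and Trappc3l none.

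**Figure D3:**
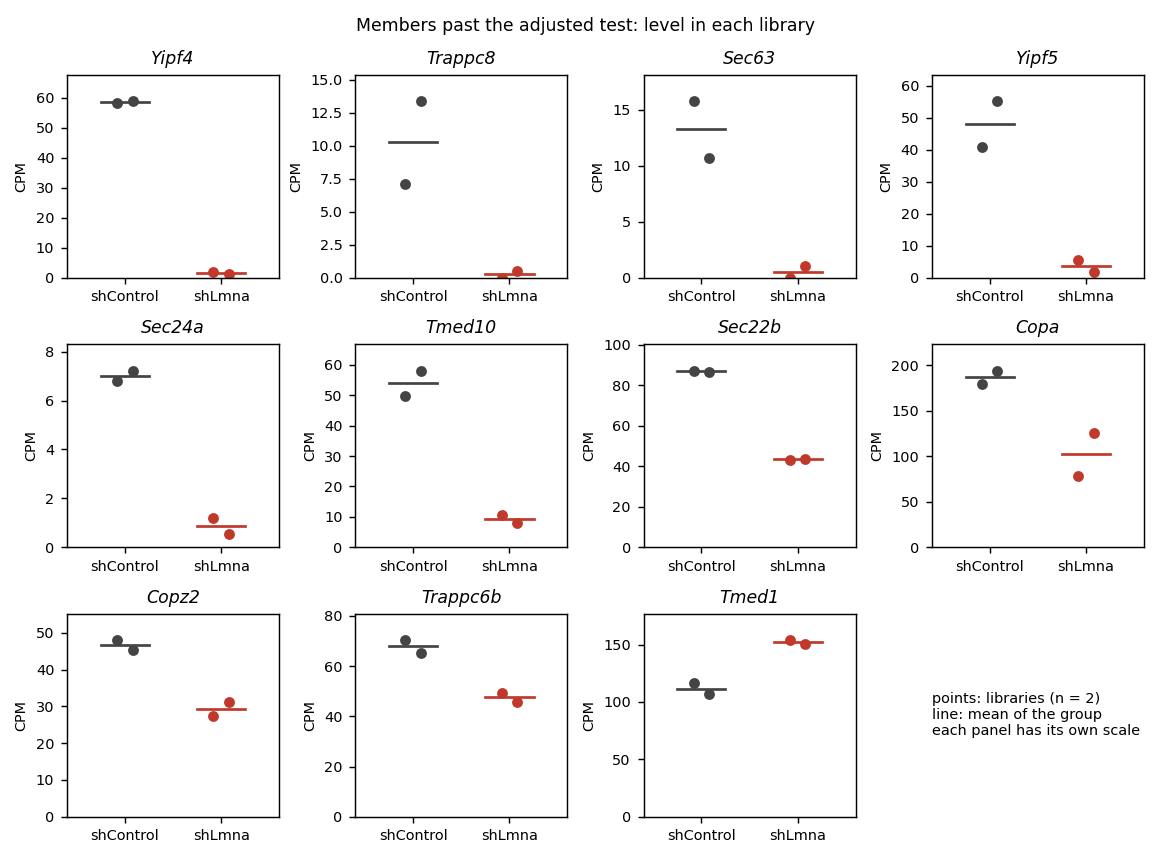
CPM (vertical axes, each from 0 on its own scale) of the 11 members past the adjusted test in each library (points) with the group mean (line), n = 2 per group. Yipf4 falls from 58.6 to 1.53 CPM, Sec63 and Trappc8 are at 0 in shLmna 1, and the points of Copa are spread in knockdown libraries, at 78.3 and 125.6 CPM.

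In the COPI coat 2 of 8 members fell, beside 9.74% of all tested genes. Copa, the alpha subunit that helps bind dilysine retrieval signals, had 580 and 725 counts in control libraries and 198 and 461 in knockdown libraries. The shLmna libraries were both lower but differed from each other, at 187 ± 10.2 against 102 ± 33.4 CPM (SD, n = 2). The log2 ratio was -0.86 (SE 0.191, edgeR adjusted p = 0.0148), and it was -1.24 without shLmna 2 and -0.57 without shLmna 1, where the test was missed (adjusted p = 0.106).

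Copz2, which encodes a zeta subunit isoform, had 155 and 169 counts in control libraries and 69 and 114 in knockdown libraries. Its groups were apart, at 46.6 ± 1.95 and 29.2 ± 2.67 CPM (SD, n = 2), and the log2 ratio was -0.67 (SE 0.178, edgeR adjusted p = 0.0318). It missed the test in DESeq2 (adjusted p = 0.219) and, with edgeR, without shLmna 1 or shLmna 2 (adjusted p = 0.206 and 0.130). The other zeta gene, Copz1, had a log2 ratio of 0.27. Cope, the COPI gene with the highest level, had 1518 and 1581 counts in control libraries and 1004 and 1817 in knockdown libraries, with overlapping groups and a fitted value of -0.000329. Copb1, Copb2 and Copg2 were at 0.41, 0.21 and 0.47, and Copg1 at -0.32. The COPI sum was 1398 ± 54.7 CPM in control libraries and 1404 ± 107 CPM in knockdown libraries (SD, n = 2).

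At the entry to the pathway, Sec63 fell. SEC63 recruits the chaperone BiP to the SEC61 channel. Sec63 had 51 and 40 counts in control libraries and 0 and 4 in knockdown libraries, with the groups apart. The ratio of summed counts per total was 20.3 (exact 95% interval 7.64 to 75.9, counting error only), and the fitted log2 ratio was -4.29 (SE 0.625, edgeR adjusted p = 0.00160). Here too shLmna 1 had no count, and the value fitted without shLmna 2 was -8.39.

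Sec62, which works beside SEC63, had 11 and 11 counts in control libraries and 3 and 14 in knockdown libraries. Its groups overlapped, and the log2 ratio of -0.24 (SE 0.574) had an edgeR adjusted p of 0.825. Sec61a1, the channel's main subunit, had 2562 and 2453 counts in control libraries and 2518 and 3271 in knockdown libraries. Its groups did not overlap in CPM, at 725 and 944 CPM on average, and the log2 ratio of 0.38 (SE 0.131) had an edgeR adjusted p of 0.0832. It passed the test in 5 of 12 alternative settings, with adjusted p from 0.00404 (edgeR without shControl 1, at 0.52) to 0.419. Sec61a2, Sec61b and Sec61g were at 0.14, 0.06 and 0.15. In Sec61b and Sec61g, 54.5% and 48.1% of the 31-base stretches occur in other genes.

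Of the 51 tested members, Yipf4, Yipf5, Sec24a, Sec63 and Trappc8 passed the filter only through their shControl libraries. Such genes entered the test through the group where they were higher, so their number is a description. Tmed8 passed through 1 library of each group, and so did Sec62, whose 11 counts in shControl 2 lay just under the cut. Both libraries of both groups were over the cut in 44 members.

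The members that fell had a lower median GC content at the counted end than the others. The GC content of these last 1000 bases was 38.1% at the median (28.3% to 54.4%) in the 10 lower members, 48.8% (35.1% to 62.04%) in the other 41 tested members and 46.9% in all tested genes with a value. The value was 28.3% in Yipf4, 29.2% in Sec24a, 33.7% in Trappc8, 38.4% in Sec63, 40.0% in Yipf5 and 45.2% in Tmed10. Among all tested genes at 35% or less, 44.8% of 446 were lower by the adjusted test, and so were all 3 members there (Yipf4, Sec24a and Trappc8). From 35% to 40%, 18.1% of 1304 genes and 4 of 12 members were lower. Sec23a, Sec24b, Sec24d, Copb1, Trappc13, Yipf6, Sec62 and Tmed8 were the 8 in that range that did not pass the test. Above 40%, between 4.49% and 6.94% of genes were lower in each of the 3 remaining ranges, and 0 of 8, 2 of 11 and 1 of 17 members were.

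**Figure D4:**
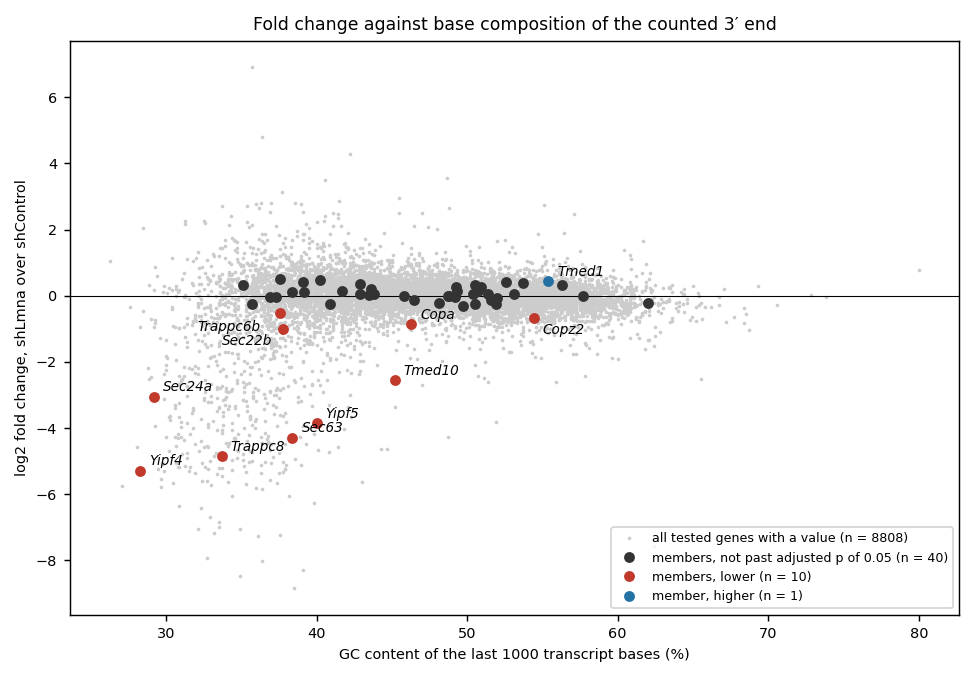
Log2 ratio (shLmna over shControl, vertical axis) against GC content of the last 1000 transcript bases (horizontal axis, in percent) for 8808 tested genes with a value (grey) and the 51 tested members (coloured). Strongly lower genes gather at low GC content, where Yipf4, Sec24a and Trappc8 lie, while Tmed10 lies at 45.2%.

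Library-wise correction for this composition kept most of the calls. With a robust curve 9 members were lower, and with a least-squares curve, chosen after the data were seen, 8 were. Yipf4 was then at -4.85 and -3.58, Yipf5 at -3.89 and -3.73, and Tmed10 at -2.63 and -2.61, each past the edgeR adjusted test. Sec24a was at -2.65 and, below the threshold, at -1.47 (edgeR adjusted p = 0.132). Trappc6b missed the test with both, with edgeR adjusted p of 0.0630 and 0.613. Length of the 3′ untranslated region had a median of 1012 bases in the lower members, 965 in the other tested members and 986 in all tested genes. In the 6 members lower by all 3 limits the median was 1755.5 bases (640 to 3480). Whether this length matters for the counts was not tested.

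**Figure D5:**
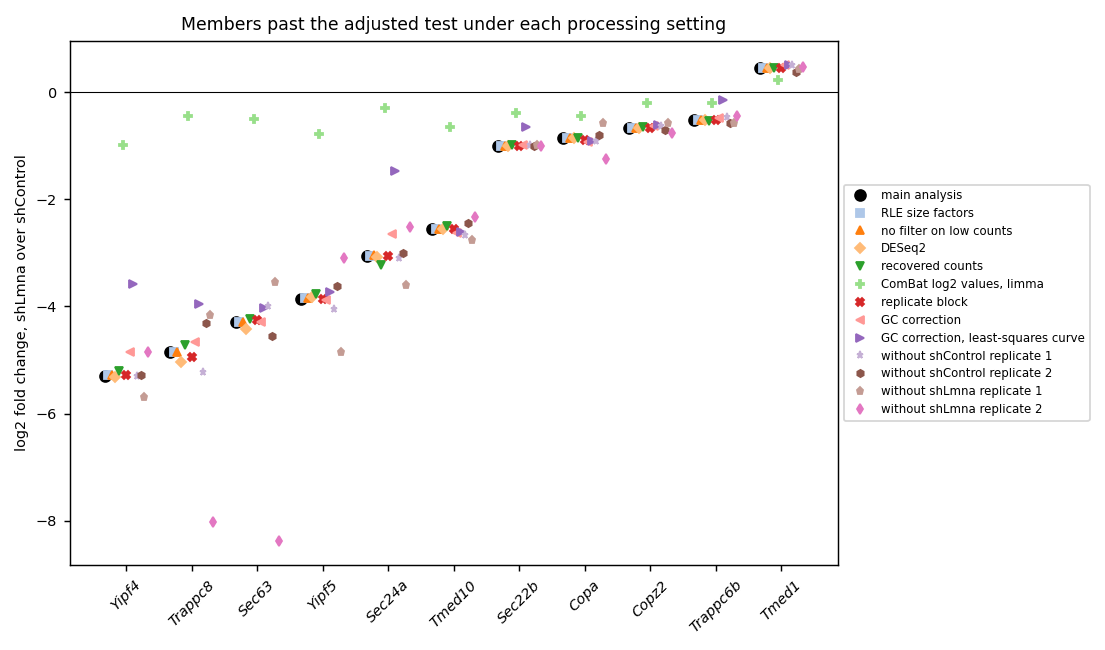
Log2 ratio (shLmna over shControl, vertical axis) of the 11 members past the adjusted test in the main analysis (black circles) and under 12 alternative settings (other symbols). No symbol changes sign. For Yipf4 the batch-corrected values give the smallest size (-0.99), and Trappc8 and Sec63 reach -8.03 and -8.39 without shLmna 2.

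Genes that work with the members were counted in 6 lists drawn up by function, and 86 of their 94 genes in the matrix were tested. Of these 11 were lower (12.8%, beside 9.74% of all tested genes) and 5 higher (5.81%, beside 5.48%), with a median log2 ratio of 0.03. By all 3 limits 5 were lower (5.81%, beside 5.88%). Counts within single classes and lists rest on few genes and are descriptions.

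The COPI partners held the largest of these falls. Arf4, a GTPase that loads COPI coats, had 1132 and 1500 counts in control libraries and 16 and 75 in knockdown libraries. Its groups were far apart, and its log2 ratio was -4.72 (SE 0.310, edgeR adjusted p = 1.40e-05), with a GC content of 35.7% at the counted end. The related Arf3 (-0.84) and the ARF exchange factor Gbf1 (-0.50) also fell, whereas Arf5 (0.58) and Arcn1 (0.68), the delta subunit of the COPI coat itself, rose. Arf4 passed the test in 12 of 12 alternative settings. With edgeR, Arf3 and Arcn1 missed it without shLmna 2 (adjusted p = 0.0857 and 0.107), and Arf5 and Gbf1 without either shLmna library. Gbf1 missed it in 6 of 12 settings, also without shControl 1, with both GC curves and in DESeq2, with adjusted p up to 0.315. The other 4 of the 9 did not pass. Of the 31-base stretches of Arcn1 and Arf3, 7.63% and 3.46% occur in other genes.

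Of 15 cargo receptors, 3 fell, beside 9.74% of all tested genes. Cnih1, a cornichon receptor for growth factor cargo, had 713 and 950 counts in control libraries and 128 and 128 in knockdown libraries (log2 ratio -2.50, SE 0.179, edgeR adjusted p = 2.32e-05). Bcap29 and Kdelr3, a receptor that returns KDEL proteins to the ER, were at -4.28 and -1.39. Bcap29 had 45 and 119 counts in control libraries and 7 and 0 in knockdown libraries, and it was at -9.35 without shLmna 1, where no count was left, and -3.02 without shLmna 2. Bcap29 and Kdelr3 missed the test in DESeq2 (adjusted p = 0.329 and 0.241), and Kdelr3 with edgeR without shControl 2, shLmna 1 or shLmna 2, while Cnih1 passed in 12 of 12 alternative settings. Of 9 COPII partners, Pdcd6 fell (-0.50), and of 11 SNARE genes the syntaxin 5 partner Scfd1 rose (0.96). Of 26 golgins, tethers and RAB genes, Rab1 (-0.91) and Cog1 (-0.57) fell and Cog7 rose (0.98). With edgeR, Pdcd6, Cog1 and Cog7 missed the test without either shLmna library, Rab1 without shLmna 1 and Scfd1 without shLmna 2, and Cog1 and Cog7 also without shControl 2. In DESeq2, Pdcd6, Cog1, Cog7 and Rab1 missed it (adjusted p = 0.120, 0.250, 0.101 and 0.132). Ddx17 overlaps Kdelr3 and Fam104a overlaps Cog1 on the other strand. Of the 31-base stretches of Bcap29 and Cog7, 10.7% and 6.70% occur in other genes.

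At the translocon, Srp72, of the signal recognition particle, had 106 and 227 counts in control libraries and 31 and 6 in knockdown libraries (log2 ratio -2.90, SE 0.573, edgeR adjusted p = 0.00871). The receptor gene Srpr fell (-0.98) and the signal peptidase gene Spcs1 rose (0.77), and the other 13 of 16 did not pass. Srp72 was at -4.81 without shLmna 1 and, short of the test, at -1.92 without shLmna 2 (edgeR adjusted p = 0.0552), and it missed the test in DESeq2 (adjusted p = 0.201). Srpr also missed the test without shLmna 2 and Spcs1 without either shLmna library. Of 12 unfolded protein response genes, which are outside the 6 lists, 3 fell, beside 9.74% of all tested genes. Hspa5, which encodes BiP, the chaperone that SEC63 recruits, had 1327 and 2393 counts in control libraries and 676 and 430 in knockdown libraries, with replicates unequal in both groups. Its log2 ratio was -1.46 (SE 0.327, edgeR adjusted p = 0.0150), with -2.16 without shLmna 1 and -0.96 without shLmna 2 (edgeR adjusted p = 0.102), and it missed the test in DESeq2 too (adjusted p = 0.184). Xbp1 and Calr were at -0.82 and -0.55, and the other 9 did not pass. Calr missed the test without shLmna 1 and Xbp1 without either shLmna library.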

How the data were processed

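RNA of shControl and shLmna cells was profiled in 4 MARS-seq libraries, 2 per group, with groups and replicate numbers taken from the sample titles. According to the submitters' processing notes and the study's methods, the authors trimmed reads with cutadapt, aligned them to mm10 with STAR 2.4.2a and counted reads with HTSeq over the final 1000 bases of each RefSeq gene plus 100 bases beyond it. Raw counts by gene symbol, as deposited by the authors, were the input of every main test. The study's methods say that molecular identifiers (UMIs) were counted with a modified HTSeq once duplicates were marked, and whether this matrix holds those UMI counts is not stated. A separate table holds a signal per library, counts divided by a DESeq2 size factor, with the authors' p-values for the same comparison, which were not used. Another deposited table holds log2 values that the authors corrected for batch with ComBat, without naming the batches.

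Counts were tested with the 2-sided edgeR 4.0.16 quasi-likelihood test in R 4.3.3, after a check on simulated data. The test used the filterByExpr filter, TMM normalization and Benjamini-Hochberg adjustment over 9150 genes. Before TMM scaling, the filter asked for at least 2 libraries at the level of 10 counts in a library of median total. CPM used TMM-scaled totals, and errors are SD over 2 libraries. SE was derived from the F statistic. Replicates differed by more than sampling noise, with a chi-square divided by its degrees of freedom of 6.96 (shControl) and 3.91 (shLmna).

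Whole counts were recovered from 100% of the signal values (tolerance 0.01). The matrix exceeded them 1.08-fold to 1.09-fold. Recovered counts, limma 3.58.1 on the ComBat values, DESeq2 1.42.0, RLE factors, no filter, a replicate block, each library left out, and loess curves on GC content (span 0.5) were the alternatives. GC content, length, coordinates and shared 31-base stretches came from GENCODE vM21 transcripts on GRCm38, the build of mm10, with 1 transcript per gene. Promoters came from RefSeq.

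Members and lists were chosen with earlier results of these data known. Named genes are Yipf4, Lmna, members and list genes with an adjusted p under 0.05, members at 3 counts or fewer in a group, the highest tested member of each class, their paralogues and members below the filter. Other members were named after their values were seen.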

Additional observations from a re-analysis of the deposited data

How the results depend on the processing

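In 12 alternative settings, Yipf4, Yipf5, Tmed10, Sec63, Trappc8, Sec22b and Lmna passed the adjusted test as lower each time, with Yipf4 from -5.70 to -0.99. Sec24a missed the test in 3 settings, Copa in 1, Copz2 in 3, Tmed1 in 4 and Trappc6b in 6. The number of members lower by the adjusted test was 7 to 14. The number higher, 1 in the main analysis, was 3 with no filter, 0 in DESeq2, 2 with recovered counts, 8 in the ComBat values, 4 with the replicate block, 5 with the least-squares GC curve, and 0 to 4 with each library left out. By all 3 limits, 0 members were lower in the ComBat values, where fold changes are smaller, and 1 was higher with the least-squares GC curve. With a library left out, its group has 1 library, which is assumed to vary like the other group. The causes were not tested.

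Values near 0 changed sign. Cope was at 0.000644 with RLE factors, 0.000865 with no filter, 0.00411 in DESeq2, 0.00728 with recovered counts, 0.10 and 0.11 with the GC curves, and -0.157 to 0.153 with each library left out. In the same way Tmed9 was at -0.0138 to 0.157, with the low end without shLmna 1, and Yipf3 at -0.0729 to 0.187, with the low end without shControl 2. Over all genes, 538 lower and 161 higher by all 3 limits became 28 and 2 in the ComBat values, 391 and 66 in DESeq2, 435 and 393 with the least-squares GC curve, and 387 to 750 and 60 to 232 with each library left out. Of all calls by the 3 limits, the part that was lower moved most with that curve, which left the median of all genes at 0.05.

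Replicate numbers are shared by the groups in name. Deviations of same-numbered libraries correlated at 0.0129 with 2 pairs, so the libraries were not treated as paired. With the replicate block 10 members were lower and 4 higher, and 1220 and 852 of all genes were. Depth is lowest for Sec24a, Sec63, Trappc8, Sec61g, Sec62 and Tmed8 among the tested members, which rest on fewer than 100 counts in all 4 libraries together, and intervals cover counting error only.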
